A study of Homo sapiens with 16 samples.

Results

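The NKG2D ligands MICA, MICB, ULBP1, ULBP2 and ULBP3 were taken by symbol from a table of 35993 gene symbols, and all 5 were found and passed the filter on low counts that left 21297 genes for testing. RNA-seq was done on 16 libraries of 4 human cell lines from bladder cancer, namely RT112, TCCSUP, J82 and 253J, with 2 libraries for each cell line and treatment. The treated cells received CM-1758, an inhibitor of histone deacetylases, at the IC50 of their own line for 48 h. The control cells are recorded as given the vehicle, DMSO at 0.01%. The study's legends of the RNA-seq figures call these control cells untreated. All cells carried the wild-type genotype on the labels, and every group is an established line in culture. The dose differed between lines and TCCSUP was grown in EMEM while the other 3 lines were in DMEM GlutaMAX, so cell line, dose and, for TCCSUP, medium cannot be told apart.

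NKG2D is an activating receptor of NK cells and cytotoxic T cells. Its ligands are relatives of MHC class I molecules that are scarce on most healthy cells and appear on stressed, infected or transformed cells, where they mark the cell for killing. MICA and MICB are transmembrane proteins encoded near HLA-B, whereas ULBP1, ULBP2 and ULBP3 belong to the RAET1/ULBP cluster elsewhere on chromosome 6 and are held at the membrane mainly by a lipid anchor. Deacetylase inhibitors are known to act on transcription of this family, and metalloproteinases can shed the proteins from the surface. Messenger RNA was measured here, not surface protein.

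The sequence before the start of 4 of the ligand genes is shown because the members differ in how they changed, and because MICA and MICB have the most alike promoters of the set. Each line gives the 250 bases before the RefSeq start, 5′ to 3′ on the strand of the gene, in build GRCh38.p14. The counts themselves came from GRCh37, and the sequences were matched by symbol only. Capitals mark the GC box (GGGCGG), the CCAAT box (CCAAT) and a heat shock element half-site pair (GAANNTTC), each searched on both strands. MICA lies on the plus strand at chr6:31403345-31403594, MICB on the plus strand at chr6:31497895-31498144, ULBP2 on the plus strand at chr6:149941764-149942013 and ULBP3 on the minus strand at chr6:150069122-150069371.
MICA: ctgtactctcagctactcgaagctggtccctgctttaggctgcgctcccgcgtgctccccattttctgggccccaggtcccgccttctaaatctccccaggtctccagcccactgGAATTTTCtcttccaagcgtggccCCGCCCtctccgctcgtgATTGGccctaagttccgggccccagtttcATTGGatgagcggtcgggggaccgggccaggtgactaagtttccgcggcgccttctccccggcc
MICB: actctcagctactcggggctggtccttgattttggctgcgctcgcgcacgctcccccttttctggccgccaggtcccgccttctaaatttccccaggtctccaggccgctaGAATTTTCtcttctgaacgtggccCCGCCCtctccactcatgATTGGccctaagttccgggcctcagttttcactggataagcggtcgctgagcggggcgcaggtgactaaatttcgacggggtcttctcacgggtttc
ULBP2: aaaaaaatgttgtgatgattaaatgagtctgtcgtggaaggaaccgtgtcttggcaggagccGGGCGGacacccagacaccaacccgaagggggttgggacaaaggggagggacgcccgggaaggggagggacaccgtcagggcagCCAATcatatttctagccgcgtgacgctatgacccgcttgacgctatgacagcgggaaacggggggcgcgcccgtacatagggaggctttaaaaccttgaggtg
ULBP3: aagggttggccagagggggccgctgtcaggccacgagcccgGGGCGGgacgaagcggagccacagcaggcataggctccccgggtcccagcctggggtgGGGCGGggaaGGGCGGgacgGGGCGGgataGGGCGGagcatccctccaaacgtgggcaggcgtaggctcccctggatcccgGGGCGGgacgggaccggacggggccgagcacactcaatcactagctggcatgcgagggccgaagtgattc

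Over the whole window of 300 bases, from 250 before the start to 49 after it with the start as base 0, the MICA and MICB sequences were 78.2% identical in a global alignment. The other pairs among the 5 ligands were 46.3% to 53.8% identical. A GC box was found in all 5 windows, once each in MICA, MICB and ULBP2, 2 times in ULBP1 and 6 times in ULBP3, and 45% of 35116 promoter windows of this length hold one. The 6 copies of ULBP3 began from base -209 to base -70. A CCAAT box was present 2 times in MICA and once each in MICB and ULBP2, against 34.6% of all windows. The heat shock element was found in MICA and MICB, against 6.77% of windows. An AP-1 site (TGANTCA) lay across the start in ULBP2 and ULBP3, against 7.71% of windows. ULBP1 had a TATA box (TATAAA) on each strand, against 11.5% of windows. The TATA box matches overlapped and lay after the start, at bases 34 to 39 and 36 to 41. No CRE (TGACGTCA, in 1.85% of windows) or E-box (CACGTG, in 7.26%) was found in the 5 windows. These matches describe letters in a reference sequence and no binding was measured.

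**Figure D1:**
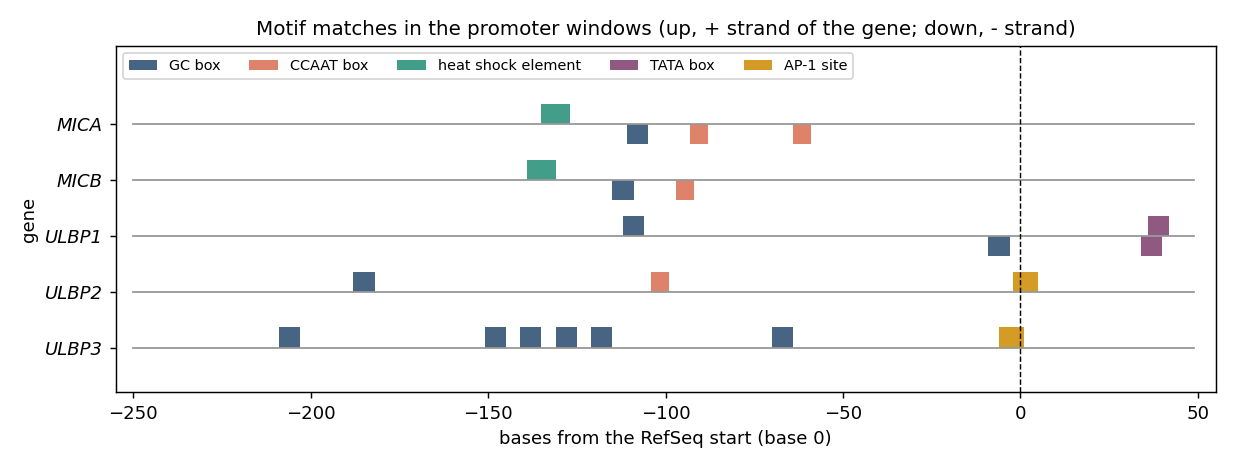
Motif matches in the promoter windows of the 5 ligand genes, plotted by distance in bases from the RefSeq start; blocks above a line match the strand of the gene and blocks below it the opposite strand. ULBP3 holds 6 GC boxes, and MICA and MICB share the order heat shock element, GC box, CCAAT box.

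Total counts were 27655401 to 32537104 in the control libraries and 22506431 to 31547585 in the treated libraries. Control libraries had counts on 19532 to 20400 genes and treated libraries on 22232 to 24905, so the number of genes seen moved with treatment. When all libraries were thinned to the smallest total, the number of ligands called in each line did not change. Replicate libraries of a group differed by more than sampling noise, with a chi-square per degree of freedom of 11.7 to 73.1, so none was a copy of another. Of 10 markers of NK cells and other lymphocytes, TYROBP was at 0 in every library and KLRK1, which encodes NKG2D, was at 0 in every control library. The summed level of the 10 markers was 0.19 to 1.42 CPM in control 253J, J82 and RT112 and 9.42 to 10.9 CPM in control TCCSUP, where PTPRC alone had a mean of 9.58 CPM. Summed levels with CM-1758 were 0.801 to 3.98 CPM in the first 3 lines and 10.1 to 12.1 CPM in TCCSUP, where PTPRC fell to 1.12 CPM (-3.10, adjusted p = 0.00188) and PRF1 went from 0 to 8.30 CPM, and their part in the ligand values was not tested. Of 12 urothelial and epithelial markers, 12 were above 3 counts in RT112, 10 in control TCCSUP and 8 in control 253J and J82, where UPK2, UPK1B, KRT5 and KRT20 were at 0. The keratins KRT18 and KRT19 were above 100 CPM on average in all control groups. With CM-1758 KRT20 was called higher in all 4 lines, and PRF1, which encodes perforin, likewise from 0 counts in all control libraries.

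CM-1758 raised the mRNA of 5 of 5 ligands in RT112 and in TCCSUP, of 3 in J82 and of 1 in 253J, where 1 other fell. ULBP2 was higher in all 4 lines and ULBP3 was higher in 3 lines and lower in 253J. MICA rose in 3 lines, and MICB and ULBP1 rose in RT112 and TCCSUP. A gene is called where the Benjamini-Hochberg adjusted p over all tested genes, from the quasi-likelihood test of edgeR, is under 0.05. Of all genes, 28.8% were called higher and 22.4% lower in 253J, 24% higher and 18.5% lower in J82, 27.4% higher and 20.2% lower in RT112, and 32% higher and 22.1% lower in TCCSUP. The median log2 fold change of the 5 ligands was 1.47 in RT112, 1.31 in TCCSUP, 0.69 in J82 and 0.03 in 253J, beside 0.12, 0.20, 0.05 and 0.10 over all tested genes. The study's stricter rule, a log2 fold change over 2 with an adjusted p under 0.01, was set on DESeq2 results and was applied here to the edgeR values. By it MICB and ULBP1 passed in RT112 and ULBP1 in TCCSUP. That rule called 14.2% of genes higher in TCCSUP, 11.4% in RT112, 9.43% in 253J and 8.81% in J82. Scaling by library size alone raised the median log2 fold change of all genes by 0.31 in TCCSUP, 0.27 in 253J, 0.15 in RT112 and 0.15 in J82.

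**Figure D2:**
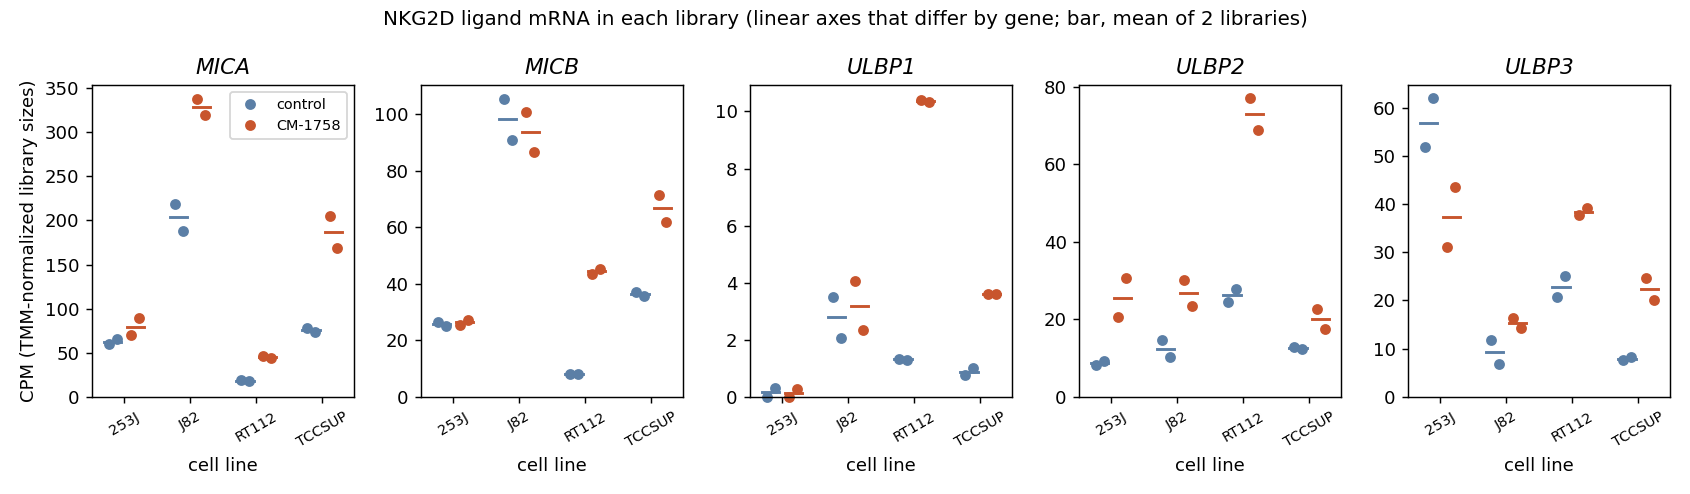
Level of each ligand in CPM (on TMM-normalized library sizes) in every library, by cell line; points are libraries, bars the mean of 2, blue control and orange CM-1758, and the axes differ by gene. In RT112 all 5 genes were called higher, beside 27.4% of all tested genes, and the ULBP3 points of 253J are the only set in which both treated libraries lie below both controls by a called difference.

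MICA, the most studied of the MHC class I chain-related ligands, was the most abundant per transcript length in J82 and TCCSUP. In 253J it had 60.3 and 65.2 CPM in the control libraries and 69.8 and 88.9 CPM with CM-1758. In J82 the control libraries had 219 and 188 CPM and the treated ones 338 and 320 CPM. The treated libraries were the higher ones in both lines, with no overlap, and the lead was widest in the J82 levels. RT112 had 18.7 and 17.8 CPM in control and 46.2 and 43.9 CPM with CM-1758. TCCSUP had 78.0 and 73.3 CPM in control and 205 and 168 CPM with CM-1758. The groups did not overlap in these lines either. The log2 fold change was 0.69 ± 0.15 (SE) in J82 (adjusted p = 0.00144), 1.30 ± 0.15 in RT112 (adjusted p = 8.37e-06) and 1.31 ± 0.15 in TCCSUP (adjusted p = 4.49e-06). In 253J it was 0.34 ± 0.15, with a 95% interval of 0.02 to 0.65 and an adjusted p of 0.0678, which missed the threshold. That 253J value passed under other settings, among them RLE normalization (adjusted p = 0.0399), DESeq2 (0.0180) and library size alone (0.00347), and without treated replicate 1 it was 0.50.

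MICB, the close relative of MICA, changed in fewer lines. In 253J it had 26.7 and 25.1 CPM in control and 25.6 and 27.3 CPM with CM-1758. In J82 it had 106 and 91.1 CPM in control and 101 and 86.9 CPM with CM-1758. The groups overlapped in both of these lines. RT112 had 8.14 and 8.17 CPM in control and 43.4 and 45.4 CPM with CM-1758, the widest separation of any MICB group. TCCSUP had 37.1 and 35.8 CPM in control and 71.6 and 61.9 CPM with CM-1758. The log2 fold change was 2.44 ± 0.14 in RT112 (adjusted p = 1.15e-08) and 0.87 ± 0.13 in TCCSUP (adjusted p = 5.85e-05). In J82 it was -0.07 ± 0.13, with a 95% interval of -0.34 to 0.21 (adjusted p = 0.740), and in 253J 0.03 ± 0.13, with an interval of -0.25 to 0.31 (adjusted p = 0.914). The sign of these last values was not fixed, since library size alone gave 0.08 in J82 and leaving out 253J control replicate 3 gave -0.02 in 253J.

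ULBP1 was the scarcest ligand and its values rest on few reads. In 253J the 2 control libraries held 0 and 8 reads and the treated ones also 0 and 8, so no fold change is given. In J82 the controls held 92 and 57 reads and the treated libraries 113 and 69, which overlapped on the CPM scale. RT112 had 41 and 38 counts in control and 266 and 271 with CM-1758, and TCCSUP had 19 and 26 in control and 96 and 92 with CM-1758. The treated libraries of RT112 and TCCSUP stood apart from their controls. As levels these were 1.34 and 1.29 against 10.4 and 10.3 CPM in RT112, and 0.752 and 0.996 against 3.59 and 3.62 CPM in TCCSUP. The log2 fold change was 2.98 ± 0.55 in RT112 (adjusted p = 0.00045), the largest among the 5 ligands, and 2.04 ± 0.58 in TCCSUP (adjusted p = 0.00806). Without TCCSUP control replicate 1 the latter was 1.85, with an adjusted p of 0.0633. In J82 it was 0.20 ± 0.52, with an interval of -0.92 to 1.31 (adjusted p = 0.83), which leaves a doubling inside the interval.

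ULBP2 was the ligand called higher in every line. In 253J it had 8.18 and 9.27 CPM in control and 20.5 and 30.7 CPM with CM-1758. In J82 it had 14.7 and 10.2 CPM in control and 30.3 and 23.5 CPM with CM-1758. These treated libraries were all above their controls. RT112 had 24.6 and 28.0 CPM in control and 77.0 and 68.9 CPM with CM-1758, and TCCSUP 12.9 and 12.2 CPM in control and 22.6 and 17.4 CPM with CM-1758. RT112 thus had the highest ULBP2 level of any line before and after treatment, and TCCSUP the smallest separation. The log2 fold change was 1.55 ± 0.22 in 253J (adjusted p = 3.69e-05), 1.11 ± 0.22 in J82 (adjusted p = 0.00084), 1.47 ± 0.21 in RT112 (adjusted p = 5.62e-05) and 0.67 ± 0.22 in TCCSUP (adjusted p = 0.0181). The TCCSUP call was lost without control replicate 1 (0.71, adjusted p = 0.0628), without control replicate 2 (0.62, adjusted p = 0.0963) and without treated replicate 1 (0.46, adjusted p = 0.177). ULBP2 shares sequence with RAET1L, where 11.8% of its 100-base words and 29.4% of its 50-base words occur too. RAET1G holds 1.76% and 11.6% of them, so reads of these genes may be partly exchanged by the counting.

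ULBP3 was the ligand whose direction differed between lines. In 253J it had 51.8 and 61.9 CPM in control and 31.0 and 43.5 CPM with CM-1758, so both treated libraries were below both controls. In J82 it had 11.7 and 6.83 CPM in control and 16.4 and 14.2 CPM with CM-1758. RT112 had 20.6 and 25.1 CPM in control and 37.7 and 39.1 CPM with CM-1758, and TCCSUP 7.60 and 8.19 CPM in control and 24.6 and 20.1 CPM with CM-1758. In J82, RT112 and TCCSUP the treated libraries were the higher ones without overlap. The log2 fold change was -0.61 ± 0.22 in 253J (adjusted p = 0.0284), 0.72 ± 0.23 in J82 (adjusted p = 0.0192), 0.75 ± 0.22 in RT112 (adjusted p = 0.0109) and 1.502 ± 0.23 in TCCSUP (adjusted p = 7.92e-05). The fall in 253J was lost without control replicate 3 (-0.48, adjusted p = 0.172), without treated replicate 1 (-0.39, adjusted p = 0.248) and with library size alone (-0.34, adjusted p = 0.235). The J82 call was lost without control replicate 3 (0.39, adjusted p = 0.212), without treated replicate 1 (0.70, adjusted p = 0.0631) and with each cell line fitted alone (0.74, adjusted p = 0.0836), and the RT112 call without control replicate 1 (0.61, adjusted p = 0.105) and without treated replicate 2 (0.72, adjusted p = 0.0521). Of the 100-base words of ULBP3, 6.86% occur in the pseudogene RAET1K, and of its 50-base words 12.4%.

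**Figure D3:**
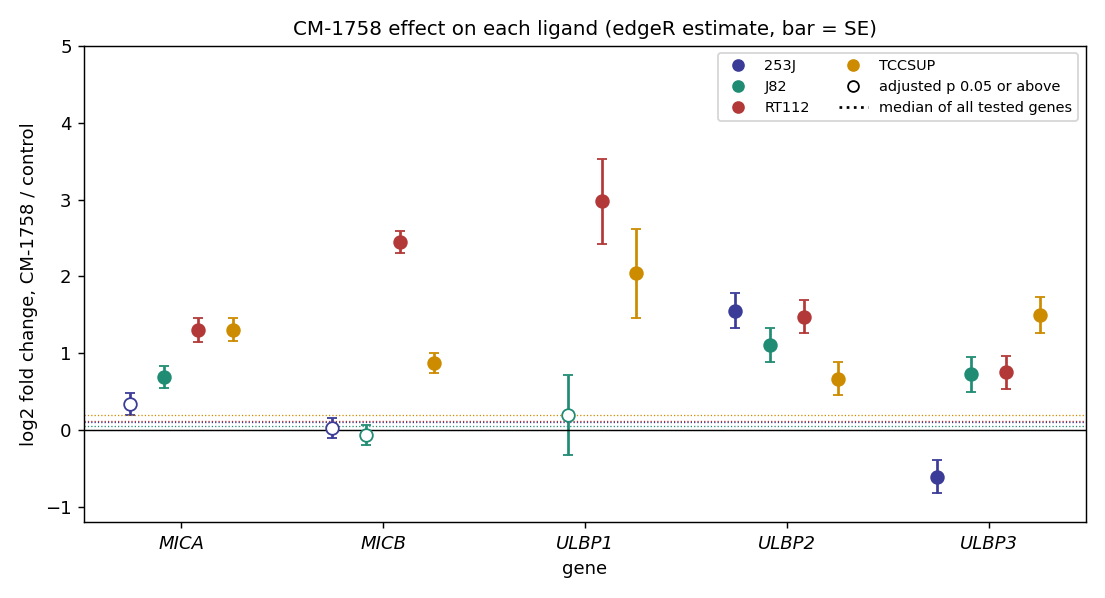
Log2 fold change of each ligand with CM-1758 against control in each cell line, from edgeR, with the SE as bars; open circles missed an adjusted p of 0.05, dotted lines are the medians of all tested genes, and ULBP1 in 253J has no point. ULBP2 lies above 0 in all 4 lines, MICB spans from -0.07 in J82 to 2.44 in RT112, and ULBP3 in 253J is the 1 called value below 0.

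Whether the CM-1758 effect differed between the cell lines was tested with the interaction of treatment and line. The effect differed for MICA (adjusted p = 0.00241), MICB (adjusted p = 3.06e-07), ULBP1 (adjusted p = 0.0227) and ULBP3 (adjusted p = 0.000463), and the test missed the threshold for ULBP2 (adjusted p = 0.0789). Thus 4 of 5 ligands were called, against 51.9% of all tested genes. MICB rose in both RT112 and TCCSUP, and the log2 fold change of TCCSUP minus that of RT112 was -1.57 ± 0.19 (adjusted p = 2.18e-05). MICB in RT112 also differed from 253J by 2.41 ± 0.19 (adjusted p = 4.65e-07) and from J82 by 2.51 ± 0.19 (adjusted p = 4.82e-07). The ULBP3 effect in 253J lay below that in J82 by 1.33 ± 0.32 (adjusted p = 0.00488), in RT112 by 1.36 ± 0.31 (adjusted p = 0.0037) and in TCCSUP by 2.11 ± 0.32 (adjusted p = 0.000161). ULBP3 was the only ligand called between J82 and 253J, where 30% of all genes were called. Between RT112 and 253J 3 ligands were called, against 30% of genes, and between TCCSUP and 253J 4 were, against 28.6%. Between RT112 and J82 3 ligands were called, against 22.2% of genes, and between TCCSUP and J82 2 were, against 22.2%. MICB alone was called between TCCSUP and RT112, against 27.5% of genes. The MICA differences of J82 from RT112 (0.61 ± 0.21, adjusted p = 0.0494) and from TCCSUP (0.61 ± 0.21, adjusted p = 0.0457) lay at the threshold and were lost with RLE normalization (adjusted p = 0.0513 and 0.0600). Leaving out 1 library took the first call away except without J82 control replicate 3 or either treated 253J library (adjusted p up to 0.155), and the second except without these or treated TCCSUP replicate 2 (up to 0.210). The ULBP2 difference of TCCSUP from 253J (-0.88 ± 0.31, adjusted p = 0.0451) was lost without any 1 RT112 library, treated 253J replicate 3, treated TCCSUP replicate 2 or any 1 control library of 253J or TCCSUP (adjusted p up to 0.229). ULBP1 differed between RT112 and J82 by 2.78 ± 0.75 (adjusted p = 0.0151), which was lost without treated J82 replicate 3 (0.0550), RT112 control replicate 1 (0.0510) or RT112 control replicate 2 (0.0512). The ULBP1 test of all lines together was lost without J82 control replicate 1, treated J82 replicate 3 or any 1 RT112 library, with adjusted p of 0.0519 to 0.0581, and the ULBP2 test passed without treated 253J replicate 1 (adjusted p = 0.0279), J82 control replicate 1 (0.0476) or J82 control replicate 3 (0.0343). The lines share no control samples in these contrasts.

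Before treatment the lines held different amounts of each ligand. MICA was highest in J82 (mean of 203 ± 22.0 CPM, SD, n = 2), followed by TCCSUP (75.6 ± 3.33), 253J (62.7 ± 3.44) and RT112 (18.3 ± 0.666), and the libraries of the neighbours TCCSUP and 253J did not overlap but were not called different (adjusted p = 0.141). MICB had the same order, with 98.3 ± 10.2 CPM in J82, 36.5 ± 0.931 in TCCSUP, 25.9 ± 1.08 in 253J and 8.15 ± 0.0185 in RT112, and every neighbour was called different, the closest being TCCSUP and 253J (adjusted p = 0.00524). J82 thus had 11.1 times the MICA level and 12.1 times the MICB level of RT112. ULBP3 had another order, with 56.9 ± 7.18 CPM in 253J, 22.9 ± 3.14 in RT112, 9.27 ± 3.44 in J82 and 7.90 ± 0.422 in TCCSUP, and the last neighbours were not told apart (adjusted p = 0.468). ULBP2 was highest in RT112 (26.3 ± 2.38 CPM), and TCCSUP (12.6 ± 0.513), J82 (12.5 ± 3.17) and 253J (8.73 ± 0.768) were not called different from each other, with adjusted p of 0.0621 to 1. ULBP1 was highest in J82 (2.78 ± 1.01 CPM), ahead of RT112 (1.31 ± 0.0373), TCCSUP (0.874 ± 0.172) and 253J (0.153 ± 0.217), where neither J82 and RT112 (adjusted p = 0.117) nor RT112 and TCCSUP (adjusted p = 0.457) were told apart. The ULBP1 call between TCCSUP and J82 (adjusted p = 0.0280) was lost without J82 control replicate 1 (0.147), TCCSUP control replicate 1 (0.145) or TCCSUP control replicate 2 (0.0740).

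Of the 5 ligands, 4 differed in control level between J82 and 253J, against 53.1% of all genes, and all 5 between RT112 and 253J, against 54.3%. Between TCCSUP and 253J 3 ligands differed, against 53.1% of genes, and between RT112 and J82 4 did, against 52.1%. Each count against 253J includes ULBP1, whose 253J control libraries held only 0 and 8 reads. Between TCCSUP and J82 3 differed, against 48% of genes, and between TCCSUP and RT112 4 did, against 51.5%. With CM-1758 the highest line held 3.55 times the MICB level of the lowest, where the control ratio was 12.1, and the ULBP3 ratio was 2.51 where it had been 7.20. The MICA ratio was 7.29 with CM-1758 and 11.1 in control, and the ULBP2 ratio 3.65 with CM-1758 and 3.01 in control. The line order of MICA means was the same in both treatments, J82, TCCSUP, 253J and RT112. ULBP3, which 253J led in control, was led by RT112 with CM-1758, by 38.4 ± 0.995 CPM against 37.3 ± 8.88, a gap smaller than the spread.

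Levels were set side by side between the ligands per kilobase of their longest coding transcript in GENCODE 29. Over the 5 ligands the summed level was 96.1 and 109 CPM per kb in control 253J and 87.8 and 117 CPM per kb with CM-1758, which overlapped. J82 had 164 and 136 CPM per kb in control and 231 and 210 with CM-1758. RT112 had the lowest control sums, 51.1 and 57.7 CPM per kb, and reached 137 and 132 with CM-1758. TCCSUP had 67.2 and 64.7 CPM per kb in control and 163 and 134.2 with CM-1758, so in J82, RT112 and TCCSUP the treated sums lay above the control sums. ULBP3 made up 54.6% and 57.6% of the per-length sum in control 253J and 35.7% and 37.5% with CM-1758, while ULBP2 made up 6.32% in both controls and 17.3% and 19.4% with CM-1758. In J82 MICA and MICB led, with MICA at 59.1% and 61.3% in control and 64.7% and 67.5% with CM-1758, and MICB at 26.3% and 27.5% in control and 17.9% and 16.95% with CM-1758. In RT112 ULBP2 and ULBP3 led in every library, and MICB moved from 6.51% and 5.78% in control to 12.96% and 14.1% with CM-1758. In TCCSUP MICA led with 51.3% and 50.1% in control and 55.8% and 55.5% with CM-1758. ULBP1 was at most 2.49% of the sum in any library. The RefSeq gene of ULBP3 reaches beyond the transcript used, so its per-length level is uncertain. In a culture of many cells, more cells expressing a ligand and more RNA in each cell cannot be told apart.

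**Figure D4:**
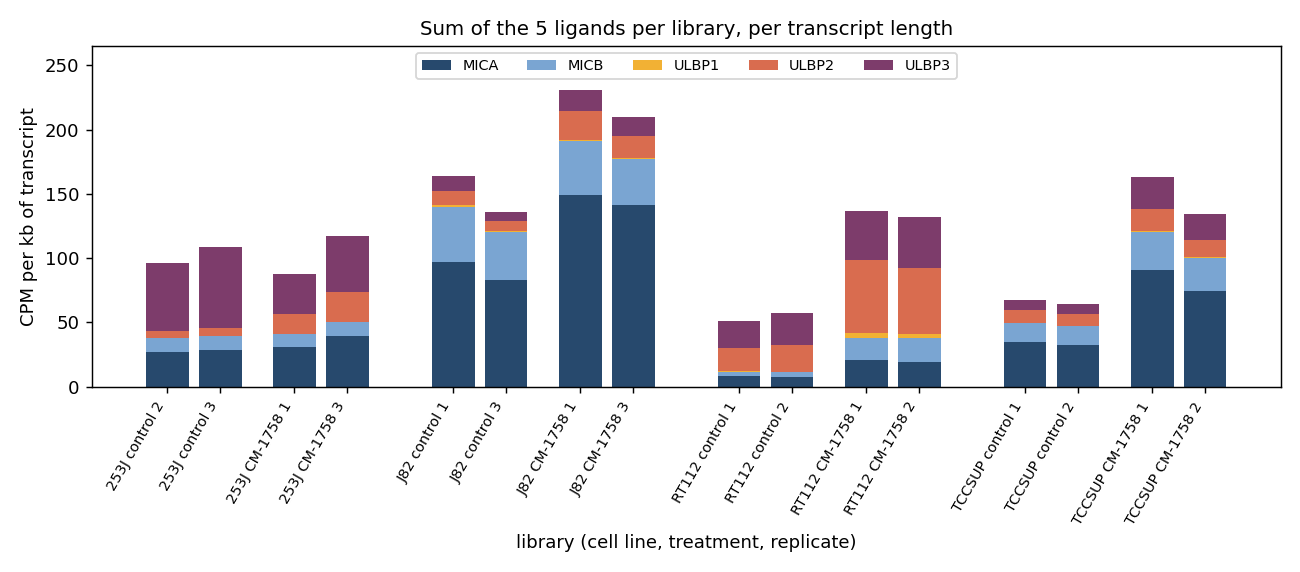
Summed level of the 5 ligands in every library in CPM per kb of transcript, stacked by gene, for each cell line, treatment and replicate. MICA and MICB make up most of the J82 and TCCSUP bars and ULBP2 and ULBP3 most of the RT112 bars, and the RT112 sums go from 51.1 and 57.7 in control to 137 and 132 with CM-1758.

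The other genes of the ULBP cluster moved unevenly between lines. Reads of RAET1L and RAET1G may be partly exchanged with each other and with ULBP2. Of their 50-base words, 31.5% in RAET1L and 12% in RAET1G occur in another gene of the family. RAET1G had 15 and 33 counts in control 253J and 232 and 322 with CM-1758, and it rose in 253J (log2 fold change of 3.47, adjusted p = 2.24e-05), J82 (2.03, adjusted p = 0.00178) and TCCSUP (1.90, adjusted p = 0.00215), but was 0.15 in RT112 (adjusted p = 0.80). RAET1L had 22 and 33 counts in control RT112 and 184 and 133 with CM-1758 (2.74, adjusted p = 0.000424). In TCCSUP RAET1L had 0 counts in both controls and 32 and 39 with CM-1758, which is at least 11.7-fold higher when the control is set to 3 counts per library. RAET1E fell in RT112, from 610 and 665 counts in control to 179 and 186 (-1.59, adjusted p = 0.00462). In J82 its controls held 25 and 30 reads and its treated libraries 99 and 52 (1.37, adjusted p = 0.0285), a call lost without control replicate 1 (1.27, adjusted p = 0.101), control replicate 3 (1.47, adjusted p = 0.0699) or treated replicate 1 (0.86, adjusted p = 0.217). In 253J RAET1E was at 0 in both controls and at 0 and 9 reads with CM-1758, so its call there rests on 1 library. In RT112, where all 5 ligands rose, RAET1E was called lower and RAET1G missed the threshold. The RAET1E log2 fold change of TCCSUP minus that of RT112 was 0.51 ± 0.63 (edgeR interaction, adjusted p = 0.627). For RAET1E these lines were thus not shown to differ. Of these 3 genes, 2 were called higher in 253J, in J82 and in TCCSUP, and in RT112 1 was called higher and 1 lower. The 253J count was 1 without control replicate 2 or treated replicate 3. RAET1E in TCCSUP (-1.08, adjusted p = 0.0737) was called lower with each cell line fitted alone (0.0237), and without treated 253J replicate 1 (0.0239), treated 253J replicate 3 (0.0240) or treated J82 replicate 1 (0.0493).

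Most of the listed genes of ligand shedding were called lower in 253J and in TCCSUP. Of all tested genes, 22.4% were called lower in 253J, 22.1% in TCCSUP, 20.2% in RT112 and 18.5% in J82. The shares called higher were 28.8%, 32%, 27.4% and 24%. Of 7 listed proteases and cofactors, 1 was called higher and 5 lower in 253J and in TCCSUP, 1 higher and 4 lower in RT112, and 2 higher and 1 lower in J82, with median log2 fold changes of -1.88, -2.17, -0.60 and 0.16. The RT112 count of lower genes was 2 without control replicate 1, control replicate 2 or treated replicate 1, and the J82 count of higher genes was 1 without control replicate 3 or treated replicate 1, the latter also giving 2 lower. ADAM9 had the smallest value in 253J, from a mean of 1228 to 193 CPM (-2.67, adjusted p = 2.67e-08), and also fell in TCCSUP (-2.66, adjusted p = 1.98e-08). ADAM10, a main sheddase of MICA, fell in 253J (-2.52, adjusted p = 3.81e-08) and TCCSUP (-1.34, adjusted p = 6.79e-06) and was -0.15 in RT112 (adjusted p = 0.455) and 0.16 in J82 (adjusted p = 0.446). MMP14 fell in TCCSUP from 673 to 47.5 CPM (-3.83, adjusted p = 3.47e-08), and MMP2 had the smallest value in RT112 (-1.65, adjusted p = 0.0188). PDIA6, a disulfide isomerase that takes part in MICA shedding, fell in all 4 lines, by values from -0.60 in RT112 (adjusted p = 0.0168) to -2.45 in 253J (adjusted p = 2.13e-07), and the RT112 call was lost without any 1 of its 4 libraries (adjusted p of 0.0570 to 0.0877). MMP9 rose in all 4 lines from under 0.4 CPM, by 2.25 in 253J (adjusted p = 0.00205), 3.21 in RT112 (adjusted p = 0.000178), 2.52 in TCCSUP (adjusted p = 0.00134) and at least 15.5-fold in J82, so the list did not move as a whole in either direction.

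Regulators known to act on ligand transcription moved in both directions. Of 16 genes, 6 were called higher and 8 lower in 253J, 2 higher and 6 lower in J82, 6 and 6 in RT112, and 1 higher and 4 lower in TCCSUP. The J82 count of higher genes was 5 with RLE normalization, library size alone, DESeq2 or at least 10 counts in every library. The RT112 count of higher genes was 2 without control replicate 1 or treated replicate 2 and 3 without treated replicate 1. With library size alone the TCCSUP count of higher genes was 4 and the 253J count of lower genes 5, and DESeq2 gave 2 higher in TCCSUP. The medians were -0.24, -0.07, -0.20 and -0.12. HDAC3, a class I deacetylase, rose in all 4 lines and had the largest value in 253J (1.44, adjusted p = 6.16e-06), J82 (0.94, adjusted p = 0.000435) and TCCSUP (0.84, adjusted p = 0.000775), while in RT112 it was at the threshold (0.43, adjusted p = 0.0497) and lost the call without any 1 library of 253J, RT112 or TCCSUP (adjusted p of 0.0594 to 0.219). STAT3 had the largest value in RT112 (1.10, adjusted p = 1.09e-05). XBP1, a factor of the unfolded protein response, fell in all 4 lines and had the smallest value in 253J (-2.59, adjusted p = 1.05e-07), J82 (-1.58, adjusted p = 1.07e-05) and TCCSUP (-2.48, adjusted p = 1.23e-07). ATF4, a stress factor of the ULBP1 gene, fell in all 4 lines, by values from -0.44 in 253J (adjusted p = 0.0301) to -1.08 in TCCSUP (adjusted p = 5.41e-05), and the 253J call was lost without control replicate 2 (-0.29, adjusted p = 0.248) or treated replicate 3 (-0.32, adjusted p = 0.219) and with library size alone (-0.17, adjusted p = 0.361). ULBP1 was called higher in RT112 and TCCSUP, while ATF4 mRNA was lower in all 4 lines, and a link between them was not tested.

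The mRNA of the listed kinases of DNA damage signalling, a route known to raise NKG2D ligands, was not called higher in any line. Kinase activity was not measured, so whether CM-1758 changed the activity of this route was not tested. Of the 4 genes, 0 were called higher and 4 were called lower in 253J, 3 in RT112, 2 in TCCSUP and 2 in J82 by edgeR, with medians of -1.14, -0.59, -0.52 and -0.34. DESeq2 also called 0 higher, and 0 were higher at an unadjusted p under 0.05. The J82 count was 1 without control replicate 3 or treated replicate 1. CHEK1 fell in all 4 lines and had the smallest value in 253J (-1.56, adjusted p = 7.05e-07), J82 (-0.79, adjusted p = 0.000373) and RT112 (-1.13, adjusted p = 1.4e-05), with -0.74 in TCCSUP (adjusted p = 0.000408). CHEK2 had the smallest value in TCCSUP (-1.06, adjusted p = 4.38e-05) and the largest in RT112 (-0.01, adjusted p = 0.986). ATR had the largest value in 253J (-0.47, adjusted p = 0.0185) and TCCSUP (0.05, adjusted p = 0.815), and ATM in J82 (-0.12, adjusted p = 0.574).

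Other ligands that NK cells read were set beside the NKG2D ligands. Of 9 other activating ligands, CD48 did not pass the filter, and of the 8 tested 1 was called higher and 3 lower in 253J, 1 and 5 in J82, 4 and 3 in RT112, and 1 and 4 in TCCSUP, with medians of 0.04, -0.88, 0.29 and -0.44. The 253J count of higher genes was 3 with DESeq2 or library size alone and 2 with RLE normalization, at least 10 counts or each line fitted alone, and the TCCSUP count was 2 with library size alone or each line fitted alone. PVR, a ligand of DNAM-1, fell in all 4 lines, from a mean of 851 to 116 CPM in 253J (-2.88, adjusted p = 1.74e-08) and by -2.04 in TCCSUP (adjusted p = 1.65e-07), where it had the smallest value. CD58, a ligand of CD2, fell in all 4 lines by values from -0.98 in RT112 (adjusted p = 0.00268) to -1.82 in 253J (adjusted p = 1.7e-05). CLEC2B had the smallest value in J82 (-2.18, adjusted p = 0.00165) and RT112 (-3.02, adjusted p = 0.000266), and in 253J it was at 0 counts in control. PDGFD had the largest value in J82 (2.27, adjusted p = 2.07e-06) and TCCSUP (1.58, adjusted p = 8e-05), and ICAM1 in RT112, from 1.96 to 10.3 CPM (2.39, adjusted p = 3.8e-05). PVR and ULBP2 thus moved in opposite directions in every line.

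Of 8 ligands of inhibitory receptors, HLA-G did not pass the filter, and of the 7 tested 0 were called higher and 3 lower in 253J, 0 and 3 in J82, 1 and 1 in RT112, and 0 and 5 in TCCSUP, with medians of -0.57, -0.74, -0.10 and -1.57. DESeq2 also called 0 higher in 253J, J82 and TCCSUP, and 0 were higher there at an unadjusted p under 0.05. The J82 count of lower genes was 1 without control replicate 1 or treated replicate 3, 5 without control replicate 3 and 6 without treated replicate 1. B2M, the light chain of MHC class I, fell in all 4 lines, from 3165 to 866 CPM in TCCSUP (-1.87, adjusted p = 3.18e-06) and by -0.77 in RT112 (adjusted p = 0.00522), its smallest value there, and the J82 call (-0.74, adjusted p = 0.00748) was lost without control replicate 1 (-0.53, adjusted p = 0.0681) or treated replicate 3 (-0.50, adjusted p = 0.0934) and with each cell line fitted alone (-0.73, adjusted p = 0.121). HLA-C had the smallest value in 253J (-1.27, adjusted p = 0.000934) and TCCSUP (-2.08, adjusted p = 1.5e-05), and HLA-E in J82 (-1.21, adjusted p = 0.000439). HLA-B, which lies near MICA and MICB, rose in RT112 from 27.1 to 149 CPM (2.46, adjusted p = 2.68e-06) and fell in TCCSUP from 934 to 250 CPM (-1.90, adjusted p = 1.52e-05). In RT112 HLA-B and MICB thus rose together, with log2 fold changes of 2.46 and 2.44, while in TCCSUP MICB rose and HLA-B fell. CLEC2D had the largest value in J82 (0.15, adjusted p = 0.724) and TCCSUP (0.02, adjusted p = 0.976).

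**Figure D5:**
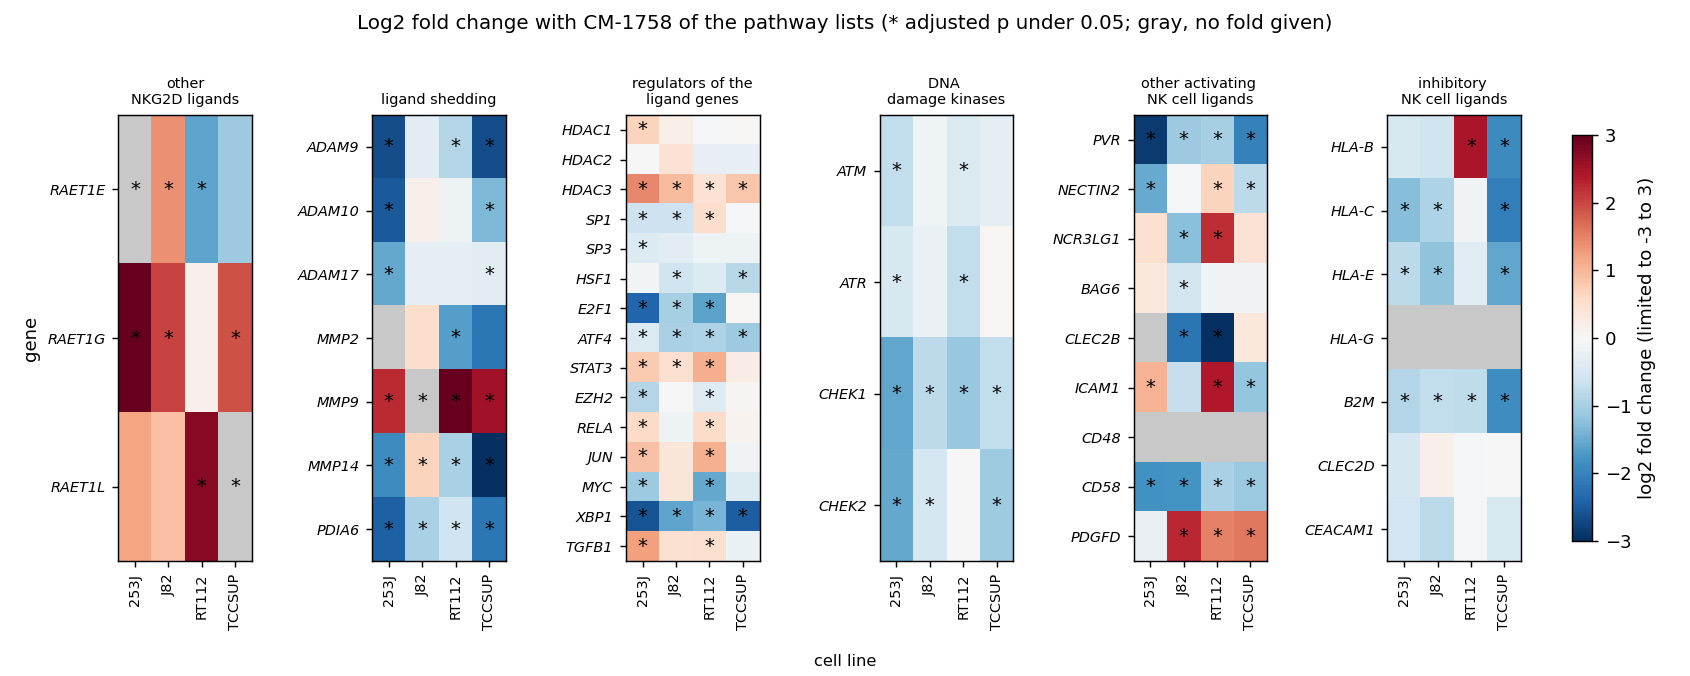
Log2 fold change with CM-1758 in each cell line for genes of 6 lists around the NKG2D ligands; red is higher and blue lower, stars mark an adjusted p under 0.05, and gray marks genes with no fold change given. PVR, CD58, XBP1 and B2M are blue with a star in all 4 lines, and HLA-B is red in RT112 and blue in TCCSUP.

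The genes whose log2 CPM followed each ligand most closely over the 16 libraries were picked by Pearson correlation among 14209 genes with a mean log2 CPM above 0. The libraries share 4 lines and a common treatment, so the values describe these libraries only. MICA was most like RGS7 (0.976), CRY1 (0.959) and LYPD6 (0.947). MICB was most like CDC42EP2 (0.964), PNMA2 (0.961) and CD274 (0.943), the gene of PD-L1. ULBP1 was most like EMSY (0.933), NPTX1 (0.927) and USP48 (0.926), ULBP2 like CASTOR3 (0.933), CAST (0.925) and PLD1 (0.920), and ULBP3 like MPPE1 (0.958), CNNM1 (0.953) and DIPK1B (0.952). Among the ligands themselves MICA and MICB were the closest, with a correlation of 0.916, and ULBP1 and ULBP2 came next with 0.582. ULBP3 had values of -0.391 with MICB and -0.389 with MICA.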

How the data were processed

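The deposited table holds raw read counts per gene symbol, which the authors made from stranded total RNA libraries with ribosomal RNA removed, and the columns were matched to the samples by their labels. The submitters' processing notes name HISAT2, StringTie and GRCh37 without roles or versions. The counting tool, annotation and strand setting are not given in the sources used here, so reads of overlapping antisense genes cannot be told apart. With edgeR 4.0.16 (R 4.3.3), genes were filtered by filterByExpr, libraries were scaled by TMM, and 1 quasi-likelihood fit took all 16 libraries in 8 groups, with Benjamini-Hochberg adjustment within each contrast. SE is the log2 fold change over the square root of F. CPM uses TMM-normalized library sizes, log2 CPM a prior count of 2, and the floor is 3 counts per library. The study's methods describe independent biological replicates. Total counts of 22506431 to 32537104 set the precision. The 5 ligands and the 8 gene lists were chosen with earlier results of these data known. Of a list, the text names genes called in all 4 lines in 1 direction and those with the largest and smallest log2 fold change in a line, and it also names, for their position or role, a few others chosen after their values were seen. Alternatives were DESeq2 1.42.0, other scalings and filters, each cell line fitted alone, thinning, a replicate block and leaving out each library. Scripts were tested on simulated data. Sequences are from RefSeq GRCh38.p14 (5 of 5 symbols matched) and lengths from GENCODE 29. Some genes of the lists enter the counts and medians but are not reported here.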

Additional observations from a re-analysis of the deposited data

Results flagged for a closer look

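By the edgeR interaction test of treatment and cell line, the CM-1758 effect differed between the lines for 4 of the 5 ligands tested. Of all tested genes, 51.9% were called by the same test. The adjusted p was 0.00241 for MICA, which rose by log2 fold changes of 0.69 to 1.31 in J82, RT112 and TCCSUP and was 0.34 in 253J. It was 3.06e-07 for MICB, which spanned from -0.07 in J82 to 2.44 in RT112. It was 0.0227 for ULBP1, which spanned from 0.20 in J82 to 2.98 in RT112 and rests on few reads. The ULBP1 call was lost without J82 control replicate 1, treated J82 replicate 3 or any 1 RT112 library. The adjusted p was 0.000463 for ULBP3, which spanned from -0.61 in 253J to 1.502 in TCCSUP. Dose was set per cell line and only TCCSUP had another medium, so dose and, for TCCSUP, medium cannot be told apart from cell line.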

How the results depend on the processing

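Depth limits ULBP1, whose counts in 253J were 0 and 8 in both groups, and 2 libraries per group limit every comparison. In 253J the number of ligands called higher was 2 in place of 1 with RLE normalization, library size alone, at least 10 counts in every library and DESeq2, and 0 under the study's call rule, and the number called lower was 0 in place of 1 with library size alone and under the study's rule. That rule gave 0 higher in J82, 2 in RT112 and 1 in TCCSUP. Requiring 10 counts in every library removes ULBP1 by construction. Leaving out 1 library gave 1 to 2 higher and 0 to 1 lower in 253J, 2 to 3 higher in J82, 4 to 5 in RT112 and 3 to 5 in TCCSUP, where it was 3 without control replicate 1. The number of ligands whose effect differed between RT112 and J82 was 1 to 3, between TCCSUP and J82 1 to 3, and between TCCSUP and RT112 1 to 3 when 1 library was left out; between TCCSUP and J82 it was 1 with RLE normalization and with no filter, and between TCCSUP and RT112 it was 2 with DESeq2 and with thinned counts. With the replicate number as a block, the 253J effect rests on replicate 3 alone, 1 control and 1 treated library, since only that number is shared. The block values in 253J were -0.51 for ULBP3, 0.45 for MICA, 1.94 for MMP9 and -0.43 for ATF4, and no call is read from them. With the block 3 ligands differed between TCCSUP and RT112, and RAET1E was called lower in TCCSUP (adjusted p = 0.0229). ULBP2 joined the ligands whose effect differed between lines, in a test that includes these 253J values. Of the gene lists, the block gave 4 regulators higher in J82, 5 inhibitory ligands lower in J82 and 2 in RT112, and 2 activating ligands higher in TCCSUP. With each cell line fitted alone, J82 had 1 shedding gene and 1 regulator higher and 1 DNA damage kinase and 1 inhibitory ligand lower, RT112 had 2 inhibitory ligands lower, and 253J had 1 other NKG2D ligand higher. Over all tested genes, same-numbered libraries deviated together weakly (0.218 in J82, 0.0427 in RT112, 0.0173 in TCCSUP), so the numbers were not taken as pairs, and in 253J the groups share 1 number. In J82, however, each of the 5 ligands was higher in replicate 1 than in replicate 3 in both groups, and whether these libraries form pairs was not tested. Values that changed sign were uncalled: MICB in 253J was -0.0169 with thinned counts and -0.0207 to 0.0758 with 1 library left out, MICB in J82 was 0.0228 with RLE and with DESeq2, 0.0797 with library size alone, 0.0454 with at least 10 counts and -0.168 to 0.0431 with 1 library left out, and ULBP1 in J82 was -0.173 to 0.619 with 1 library left out. Of the ligands' log2 fold changes, 136 values under other settings and 287 with 1 library left out kept their sign and their side of the threshold, while 3 and 10 lost the call, 5 and 1 gained it and 5 and 6 changed sign. The values under other settings include those of the block in 253J, which rest on 1 library per group. The cause of these changes was not tested.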
